A study of Homo sapiens with 19 samples.

Results

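The acetylation of histone H3 at lysine 18 (H3K18ac) and the monomethylation of histone H3 at lysine 4 (H3K4me1) were compared in mock-transfected U2OS cells, an established human osteosarcoma line. Every region of the mock lists of both marks was taken, 55080 H3K18ac peaks and 49665 H3K4me1 peaks, which make up 104745 of the 431797 regions in the 11 peak lists of the series. The series asks how the chromatin remodeller EP400 acts on the histone variants H2AZ and H3.3. Its libraries are chromatin immunoprecipitations (ChIP) of EP400, Pol II, MED26, H3.3, H2AZ and both marks, and RNA-seq, in cells transfected with EP400 siRNA or with a mock siRNA against GFP, with harvest 72 hr after transfection. Each mark was profiled in 1 library of mock cells and in none with EP400 siRNA. The lists of EP400, Pol II, MED26, H3.3 and H2AZ that are set beside the marks come from 1 list each, the EP400 list covering 3 immunoprecipitations whose siRNA the labels do not give. RNA comes from 1 library after EP400 siRNA and 1 after mock siRNA. With 1 library per mark and condition no difference has a replicate check, no test was possible, and the 95% intervals below cover counting error only.

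H3K18ac is written mainly by the acetyltransferases EP300 and CREBBP and is found at active promoters and enhancers. H3K4me1 is written mainly by KMT2C and KMT2D, marks enhancers in both active and inactive states, and typically flanks active promoters, whose centres carry trimethylated lysine 4 in its place. Stretches with both acetylation and H3K4me1 away from promoters are commonly read as active enhancers, and stretches with H3K4me1 alone as primed or weaker ones. The lists name regions only, so neither activity nor the strength of a mark was measured here.

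Promoters of 5 genes show the combinations of marks met at gene starts, each as the 250 bases before the RefSeq start (build GRCh38.p14, strand of the gene, CG dinucleotides in capitals). These 5 were chosen after their values were seen. KDM1A encodes a demethylase of H3K4me1 and had H3K18ac alone within 2 kb of its start. FLNA, which encodes the actin crosslinker filamin A, and CLDN4, which encodes a tight-junction claudin, had both marks there. NEUROD1, a neuronal transcription factor gene, had H3K4me1 alone, and AFP, the fetal liver protein gene, had neither.
KDM1A chr1:23019218-23019467, plus strand: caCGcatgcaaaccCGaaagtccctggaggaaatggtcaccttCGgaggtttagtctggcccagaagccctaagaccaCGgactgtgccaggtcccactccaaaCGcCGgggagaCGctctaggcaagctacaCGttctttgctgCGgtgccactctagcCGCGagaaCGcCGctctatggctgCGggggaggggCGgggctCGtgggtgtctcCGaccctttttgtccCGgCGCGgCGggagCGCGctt
FLNA chrX:154374635-154374884, minus strand: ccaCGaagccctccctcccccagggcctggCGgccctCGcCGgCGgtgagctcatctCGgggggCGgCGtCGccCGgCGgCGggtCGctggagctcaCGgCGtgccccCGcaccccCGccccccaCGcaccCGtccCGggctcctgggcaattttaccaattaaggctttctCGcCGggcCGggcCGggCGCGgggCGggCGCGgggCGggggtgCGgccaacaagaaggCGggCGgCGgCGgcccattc
CLDN4 chr7:73830746-73830995, plus strand: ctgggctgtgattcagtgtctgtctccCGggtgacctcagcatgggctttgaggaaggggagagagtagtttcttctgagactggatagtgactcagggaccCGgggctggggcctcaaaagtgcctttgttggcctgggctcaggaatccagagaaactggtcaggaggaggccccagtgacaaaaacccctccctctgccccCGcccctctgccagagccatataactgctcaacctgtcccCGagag
NEUROD1 chr2:181680518-181680767, minus strand: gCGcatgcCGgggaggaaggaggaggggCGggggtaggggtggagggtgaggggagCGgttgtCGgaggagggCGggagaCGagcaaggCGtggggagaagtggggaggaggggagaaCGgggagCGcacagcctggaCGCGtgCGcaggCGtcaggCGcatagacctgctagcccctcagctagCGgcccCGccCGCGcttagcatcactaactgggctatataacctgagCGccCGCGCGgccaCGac
AFP chr4:73435971-73436220, plus strand: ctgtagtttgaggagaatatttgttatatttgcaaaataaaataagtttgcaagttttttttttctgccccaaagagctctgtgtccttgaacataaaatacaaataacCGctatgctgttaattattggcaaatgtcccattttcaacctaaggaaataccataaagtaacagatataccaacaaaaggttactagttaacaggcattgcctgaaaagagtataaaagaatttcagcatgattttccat
The 250 bases held 23 CG in KDM1A, 35 in FLNA, 4 in CLDN4, 24 in NEUROD1 and 1 in AFP. The CLDN4 stretch holds matches to TGANTCA, a pattern looser than the words that the AP-1 factors bind, as N is any base. Its matches read TGATTCA and TGACTCA. The AFP stretch holds a match to TATAAA, the letters of a TATA box. No other stretch of the 5 has a match to either motif on either strand.

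H3K18ac covered wider regions than H3K4me1. The median width was 400 bp for H3K18ac (quartiles 200 and 800) and 200 bp for H3K4me1 (quartiles 100 and 400), on lists that run in steps of 100 bp. The widest H3K18ac peak spanned 17200 bp and the widest H3K4me1 peak 5400 bp. Peaks of 1000 bp or more made up 21.9% of the H3K18ac list and 4.04% of the H3K4me1 list, and they held 62.2% of the H3K18ac bases and 18.7% of the H3K4me1 bases. At the narrow end, 21.3% of H3K18ac peaks and 41.4% of H3K4me1 peaks spanned the minimum of 100 bp. In all, H3K18ac covered 39342.8 kb, or 1.27% of the summed extent of the chromosomes (3093 Mb), and H3K4me1 covered 14702.1 kb, or 0.475%. Widths and numbers of peaks depend on the depth and enrichment of a library and on the antibody, none of which the lists carry, and their part in these differences was not tested.

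Overlap was uneven in the 2 directions. Of the H3K18ac peaks, 18976 (34.5%, interval 34.1 to 34.8) shared at least 1 bp with an H3K4me1 peak, whereas 26113 of the H3K4me1 peaks (52.6%, 52.1 to 53.0) shared at least 1 bp with H3K18ac. The shared stretches amounted to 8894.5 kb, which is 22.6% of the H3K18ac bases and 60.5% of the H3K4me1 bases. That is 47.6 times the share of the genome that the other mark covers. Nesting ran mostly one way: 2955 H3K18ac peaks (5.36%) lay wholly inside an H3K4me1 peak, and 20441 H3K4me1 peaks (41.2%) lay wholly inside an H3K18ac peak. Where the marks did not overlap they were often close, with 54.9% of H3K18ac peaks and 72.5% of H3K4me1 peaks overlapping or within 1 kb of the other mark.

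Overlap climbed with width in both lists. Among H3K18ac peaks it was 11.1% at 100 bp, 18.7% at 200 bp, 25.6% at 300 to 400 bp, 39.9% at 500 to 900 bp and 69.4% at 1000 bp or more. Among H3K4me1 peaks of the same classes it was 34.4%, 48.6%, 64.1%, 82.1% and 96.2%. A wider region meets more of any other list, so each share was also read within a class. In each of the 5 classes the H3K4me1 share was higher than the H3K18ac share. Classes of width do not even out the list that is met, as H3K18ac covers 1.27% of the genome and H3K4me1 0.475%.

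**Figure D1:**
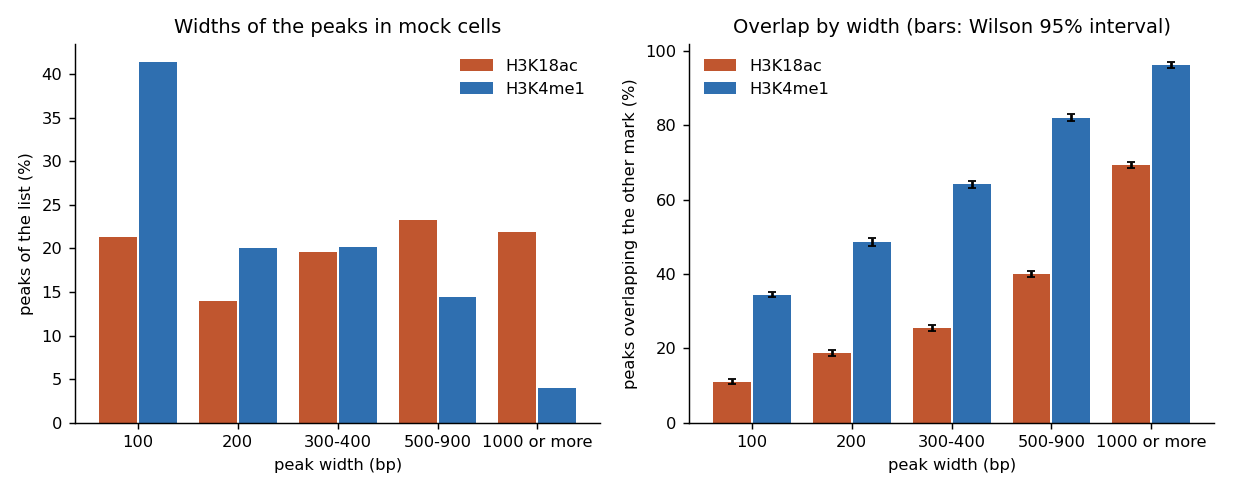
Left, share of each list (%) by peak width (bp). Right, share of peaks (%) that overlap the other mark by at least 1 bp, with Wilson 95% intervals for counting error. H3K18ac peaks of 1000 bp or more make up 21.9% of their list, against 4.04% for H3K4me1, and overlap climbs with width in both lists.

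Overlapping peaks of both lists were joined into 78327 sites: 18671 with both marks (23.8%), 36104 with H3K18ac alone (46.1%) and 23552 with H3K4me1 alone (30.1%). The median width was 900 bp for sites with both marks, 300 bp for H3K18ac alone and 100 bp for H3K4me1 alone. H3K18ac covered 94.5% of the bases of the sites with both marks, and H3K4me1 covered 40.7%. A single peak of each mark formed 74.2% of these sites, and 24.8% held more than 1 H3K4me1 peak. The distal H3K18ac peaks of 2000 bp or more that overlapped H3K4me1 (3293 peaks) were each divided into 10 equal parts. H3K4me1 covered 35.6% of the central pair of parts, 39.0% of the pairs next to the outermost parts, 26.6% of the outermost parts and 7.37% of the flanks, a peak width to each side. These peaks were taken because they overlap H3K4me1, which sets the inside above the flanks, so only the parts inside the peak are compared. In this class the central parts were slightly lower than those beside them. In distal peaks of 1000 to 1900 bp the shares were 35.0% in the central parts and 35.7% beside them. At 500 to 900 bp the order was the other way, with 49.0% in the central parts and 41.8% beside them.

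The lists also differed in where they lay relative to genes. A locus is a cluster of overlapping transcripts in the RNA table, which gives no strand, so starts and ends were first counted together, as positions within 2 kb of either end of a locus. By their centres, 13505 H3K18ac peaks (24.5%, 24.2 to 24.9) and 5391 H3K4me1 peaks (10.9%, 10.6 to 11.1) lay there, on 4.69% of the bases. Within 500 bp of a locus end lay 15.4% of H3K18ac peaks and 2.27% of H3K4me1 peaks. The median distance to the nearest end was 18738.5 bp for H3K18ac (18322.5 to 19205.5) and 25302.5 bp for H3K4me1 (24837.5 to 25751.5). Inside loci and away from their ends lay 34.9% of H3K18ac peaks and 46.7% of H3K4me1 peaks, and outside loci lay 40.6% of H3K18ac peaks and 42.5% of H3K4me1 peaks.

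Among the sites, H3K18ac alone was the class found most at locus ends: 8.12% of sites with both marks (7.74 to 8.52), 33.2% with H3K18ac alone (32.7 to 33.6) and 14.8% with H3K4me1 alone (14.3 to 15.2) lay within 2 kb of one. The rest of the sites with both marks divided into 43.6% inside loci and 48.3% outside. Sites with H3K4me1 alone leaned to the bodies of loci, with 49.8% inside and 35.5% outside. Read by peak, 11.3% of H3K18ac peaks at locus ends overlapped H3K4me1, against 42.0% of distal ones. Width did not remove this contrast: among H3K18ac peaks of 1000 bp or more, 30.0% of the 2506 at locus ends and 79.7% of the 9551 distal ones overlapped H3K4me1. An acetylated site without H3K4me1 at a locus end lay a median of 10400 bp from the nearest H3K4me1 peak. A site with H3K4me1 alone at a locus end lay a median of 900 bp from the nearest H3K18ac peak.

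With the strand of the gene taken from the RefSeq promoter table, starts could be told from ends for 9995 loci that hold 1 gene symbol with 1 listed promoter. Over the 3428 of these loci that were 10 kb or longer and had a mock level of 1 FPKM or more (sequenced fragments corrected for the length of the transcript and the size of the library), 79.1% had H3K18ac within 2 kb of the start (77.8 to 80.5) and 24.7% had H3K4me1 there (23.3 to 26.2). At the far end of the same genes the shares were 8.11% for H3K18ac and 6.13% for H3K4me1. In these genes both marks were thus more frequent at starts than at far ends, and H3K18ac by the larger margin.

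The marks were arranged around these starts in opposite ways. H3K18ac covered 27.7% of the bases in the 500 bp before the start and 42.2% in the 500 bp after it, with a highest value of 52.6% in the bin 250 bp downstream and an upstream peak of 33.3% at 350 bp. H3K4me1 covered 0.523% of the 500 bp before the start and 0.243% of the 500 bp after it, against 0.475% of the genome. Its lowest bin, 0.183%, lay 150 bp downstream of the start. H3K4me1 was higher farther out, at 1.74% from 1000 to 2000 bp upstream and 2.36% from 1000 to 2000 bp downstream, with summits of 2.10% at 1250 bp upstream and 2.72% at 1450 bp downstream. In those same flanks H3K18ac stood at 4.56% upstream and 4.48% downstream. Around the far ends of the genes neither mark had such a profile, with H3K18ac between 0.778% and 2.99% and H3K4me1 between 0.360% and 1.09% in every bin of 100 bp.

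**Figure D2:**
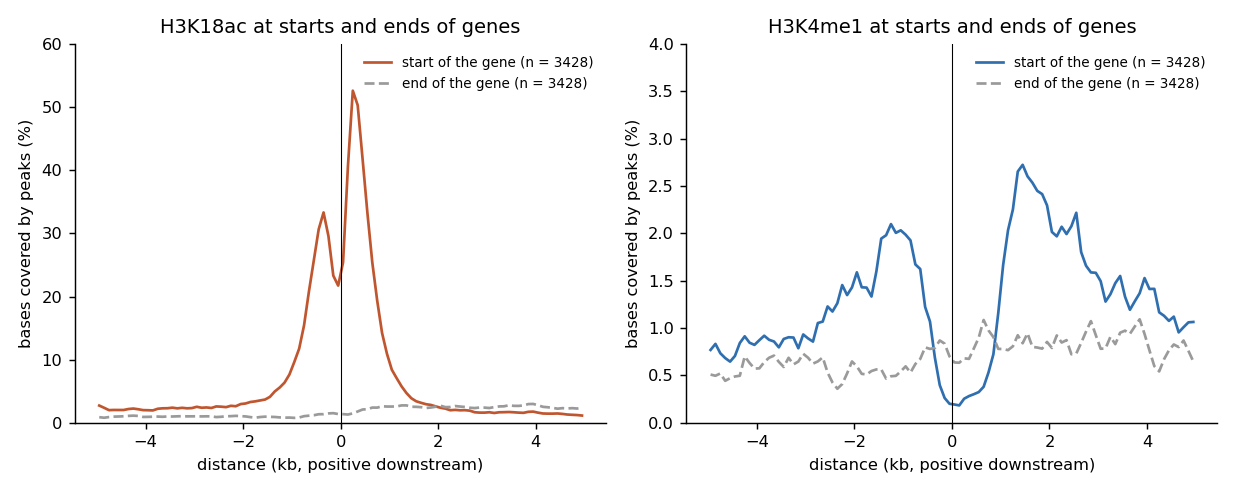
Share of bases (%) covered by H3K18ac peaks (left) and H3K4me1 peaks (right) in bins of 100 bp around the starts and the far ends of 3428 genes with a mock level of 1 FPKM or more; positive distances (kb) run downstream. H3K18ac reaches 52.6% 250 bp after the start, where H3K4me1 is near its lowest, and H3K4me1 has its summits 1250 bp before and 1450 bp after the start. The vertical scales differ.

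The genes whose promoters are printed above differed from one another in how the marks lay (hg19). At the KDM1A start, chr1:23345940, H3K18ac lay at chr1:23345501-23345700 and chr1:23346101-23346600, on either side of the start. At the FLNA start, chrX:153603006, H3K18ac lay across the start at chrX:153602701-153603200 and H3K4me1 lay apart from it, inside the gene, at chrX:153602201-153602300. CLDN4 lay in a broad domain, with H3K18ac at chr7:73241101-73245200 and chr7:73245901-73248300, and with H3K4me1 peaks of 400, 900 and 600 bp nested in them, of which that at chr7:73244201-73245100 ended just before the start at chr7:73245192. NEUROD1 had a lone H3K4me1 peak of 100 bp at chr2:182545201-182545300, just downstream of its start at chr2:182545392, with no H3K18ac within 2 kb. Mock RNA stood at 23.3 FPKM for KDM1A, 540 FPKM for FLNA, 63.4 FPKM for CLDN4 and 0.766 FPKM for AFP, and NEUROD1 was listed at 0.

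Promoter sequence also differed with the marks at the start. In the 300 bases around the start (250 before and 50 after), the median number of CG was 26 in 1396 promoters with both marks, 28 in 3413 with H3K18ac alone, 21 in 304 with H3K4me1 alone and 8 in 4882 with neither, against 21 in all 9995. TATAAA, searched on both strands, was present in 7.59% of promoters with both marks, 5.19% with H3K18ac alone, 9.87% with H3K4me1 alone and 16.4% with neither, against 11.2% of all. TGANTCA, which reads the same on both strands, was present in 6.81%, 4.19%, 7.57% and 7.76% of these classes, against 6.40% of all. Over all levels of RNA, promoters with H3K18ac alone had the most CG and the fewest matches to both motifs.

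Promoters with neither mark had more CG at higher RNA, so the classes were also read within quintiles of mock FPKM. In the second quintile (0.0124 to 0.391 FPKM) the median was 14 CG with both marks (134 promoters), 25 with H3K18ac alone (331), 18 with H3K4me1 alone (80) and 10 with neither (1392). In the highest quintile it was 30 with both marks, 29 with H3K18ac alone, 27 with H3K4me1 alone and 24 with neither, so the classes lay close together there. The excess of CG in promoters with H3K18ac alone over those with both marks was thus seen among genes with little RNA and not among those with the most. For the motifs the order did not hold in every quintile: TATAAA was present in 3.60% with H3K18ac alone and 1.49% with H3K4me1 alone in the fourth and in 5.86% with H3K18ac alone and 3.70% with H3K4me1 alone in the highest, on 67 and 54 promoters with H3K4me1 alone. TGANTCA was present in 4.48% with both marks and 6.34% with H3K18ac alone in the second.

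**Figure D3:**
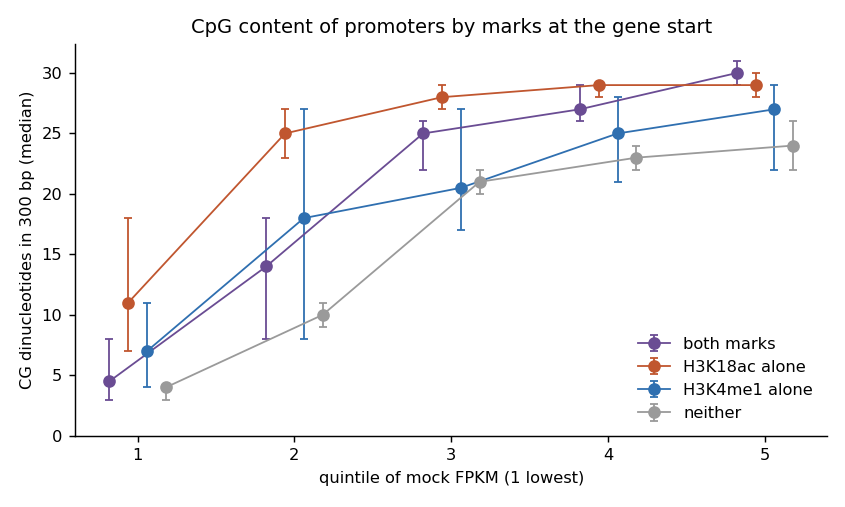
Median number of CG dinucleotides in the 300 bp around the gene start, by quintile of mock FPKM and by the marks within 2 kb of the start; bars are order-statistic 95% intervals. Promoters with H3K18ac alone stand above the others in the second quintile (25, against 14 with both marks and 10 with neither), and the classes converge in the highest.

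The other ChIP lists of mock cells overlapped the 3 kinds of site to differing extents. H3.3, the replication-independent variant of histone H3, overlapped 46.7% of sites with both marks (46.0 to 47.5), 16.8% with H3K18ac alone (16.4 to 17.2) and 18.7% with H3K4me1 alone (18.2 to 19.2). In the same order of sites, Pol II overlapped 19.6%, 38.1% and 4.67%, and MED26, a subunit of the Mediator coactivator, 23.5%, 29.7% and 2.29%. H2AZ, a variant of histone H2A found at promoters and enhancers, overlapped 25.98%, 36.1% and 6.90%. EP400 overlapped 8.29%, 7.89% and 1.72%. None of these 5 lists reached 34.9% of sites with both marks, 46.6% with H3K18ac alone and 72.2% with H3K4me1 alone. The lists differ in how much they cover, at 0.735% of the genome for H3.3, 0.689% for Pol II, 0.548% for H2AZ, 0.345% for MED26 and 0.0524% for EP400, so shares are compared between kinds of site within a list and not between lists. H3.3 was highest at sites with both marks, and Pol II, MED26 and H2AZ at sites with H3K18ac alone. Sites with H3K4me1 alone were the narrowest, with a median of 100 bp, and a narrower site meets fewer peaks of any list. Their shares were not compared with the other kinds at equal width.

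Between sites with both marks and H3K18ac alone, the Pol II gap was seen at locus ends and not among all distal sites, whose widths differ. At locus ends Pol II overlapped 51.7% of sites with both marks, 84.7% with H3K18ac alone and 15.1% with H3K4me1 alone, and away from them 16.7%, 15.0% and 2.87%. Among H3K18ac peaks of 100 bp at locus ends, Pol II overlapped 9.90% with H3K4me1 and 69.2% without. At 1000 bp or more it overlapped 68.6% with H3K4me1 and 96.2% without. The H3.3 contrast was present in both places, at 62.2%, 24.4% and 37.0% at locus ends and 45.4%, 13.0% and 15.5% away from them. EP400 away from locus ends was found at 7.66% of sites with both marks, 3.02% with H3K18ac alone and 1.52% with H3K4me1 alone.

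Sites with both marks are wider, so distal H3K18ac peaks with and without H3K4me1 were compared within classes of width. H3.3 overlapped 24.5% of the 100-bp peaks with H3K4me1 and 7.26% of those without, and 56.1% of the peaks of 1000 bp or more with H3K4me1 and 30.3% of those without, a difference of 17.3 to 25.8 percentage points over the 5 classes. For Pol II the order was the other way, at 3.10% with and 7.71% without H3K4me1 at 100 bp, and at 27.1% with and 39.5% without at 1000 bp or more. MED26 and H2AZ were lower with H3K4me1 in each of the 5 classes, with differences between -0.36 and -7.24 points for MED26 and between -1.72 and -9.77 points for H2AZ. EP400 differed by 2.59 points at most and in both directions, so at equal width the EP400 excess at distal sites with both marks was not seen.

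**Figure D4:**
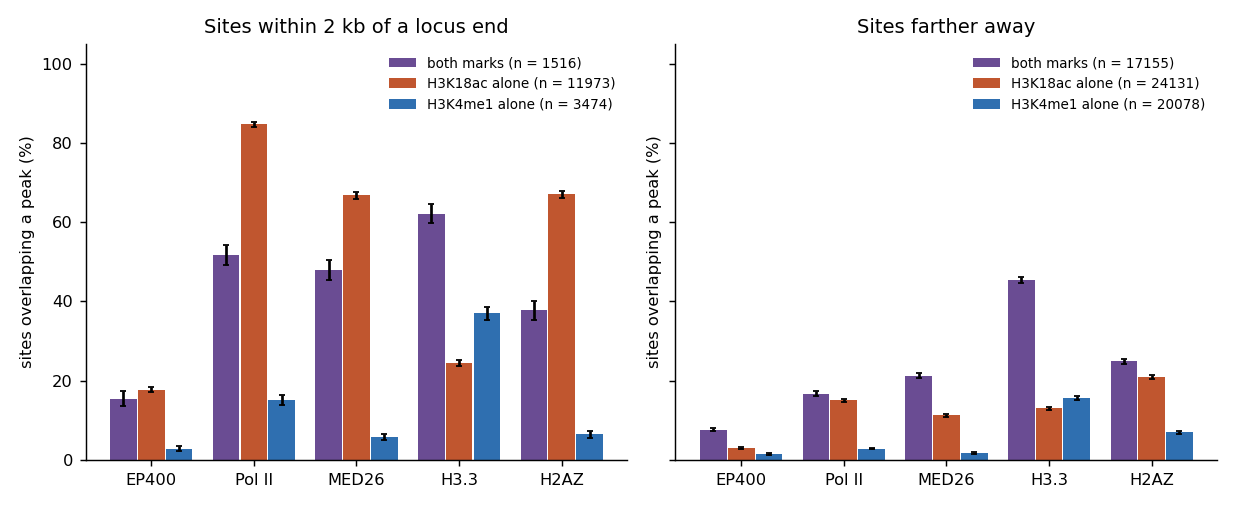
Share of sites (%) that overlap a peak of EP400 or of the mock lists of Pol II, MED26, H3.3 and H2AZ, for sites with both marks, H3K18ac alone and H3K4me1 alone, within 2 kb of a locus end (left) or farther away (right); bars are Wilson 95% intervals. H3.3 is highest at sites with both marks in each panel, and Pol II reaches 84.7% at H3K18ac alone near locus ends.

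The same sites were read against the lists made after EP400 siRNA, in which the marks themselves were not measured. H3.3 overlapped 12.9% of sites with both marks after EP400 siRNA and 46.7% in mock cells. At H3K18ac alone it overlapped 2.01% after EP400 siRNA and 16.8% in mock cells, and at H3K4me1 alone 6.84% after EP400 siRNA and 18.7% in mock cells. These were in part different sites. Of the sites with H3.3 in mock cells, 17.6% with both marks, 5.07% with H3K18ac alone and 7.55% with H3K4me1 alone also had it after EP400 siRNA. Pol II overlapped 5.91% of sites with both marks after EP400 siRNA and 19.6% in mock cells, and at H3K18ac alone 29.9% after EP400 siRNA and 38.1% in mock cells. For H2AZ the shares at sites with both marks were 7.10% after EP400 siRNA and 25.98% in mock cells, and at H3K18ac alone 19.7% after EP400 siRNA and 36.1% in mock cells. For MED26 the shares at sites with both marks were 16.1% after EP400 siRNA and 23.5% in mock cells, and at H3K18ac alone 25.1% after EP400 siRNA and 29.7% in mock cells. The lists themselves were shorter after EP400 siRNA, at 0.457 times the mock number for H2AZ, 0.519 for H3.3, 0.682 for Pol II and 0.902 for MED26. A shallower or less enriched library gives a shorter list, and its part in these shares was not tested.

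The locus nearest to a site had more RNA than the locus nearest to positions set every 10 kb along the chromosomes, for each kind of site. The median mock level was 2.09 FPKM for sites with both marks (1.98 to 2.20), 2.19 FPKM for H3K18ac alone (2.11 to 2.27) and 2.62 FPKM for H3K4me1 alone (2.52 to 2.78), against 0.388 FPKM for the positions. Sites share loci, so these intervals are too narrow, and the 3 medians differed little beside the quartiles of each, which for sites with both marks ran between 0.161 and 11.5 FPKM. Position mattered more than class. Within 2 kb of a locus end the medians were 4.47, 6.79 and 8.28 FPKM in the same order, against 1.005 FPKM for the positions. Inside loci they were 3.12, 1.82 and 3.96 FPKM, against 0.965 FPKM, and outside loci 1.15, 0.704 and 0.736 FPKM, against 0.152 FPKM. Sites with both marks had the highest median outside loci only, where the nearest locus is the least certain partner of a site.

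Counted per locus, both marks were more frequent at the ends of loci with more RNA. H3K18ac was found within 2 kb of an end of 10137 of 20091 loci (50.5%) and H3K4me1 at 4364 (21.7%). From the lowest to the highest quintile of mock FPKM, the share with H3K18ac was 8.66%, 28.1%, 60.2%, 72.3% and 83.0%, and the share with H3K4me1 was 6.94%, 14.8%, 20.1%, 26.4% and 40.4%. H3K18ac thus separated loci with little RNA from the rest, while H3K4me1 climbed more evenly. Loci with both marks at their ends (3686) had a median of 8.86 FPKM, loci with H3K18ac alone (6451) 4.17 FPKM, loci with H3K4me1 alone (678) 0.746 FPKM and loci with neither (9276) 0.0516 FPKM. The 8.28 FPKM given above for sites with H3K4me1 alone is another measure. A locus end near such a site can have H3K18ac in a separate peak. Of the loci with both marks at an end, 1545 (41.9%) had peaks that overlapped, with a median of 5.23 FPKM. Another 1943 (52.7%) had both marks within 2 kb of the same end but in separate peaks, with a median of 11.1 FPKM (9.33 to 12.7, against 4.41 to 6.80 for overlapping peaks). The remaining 198 (5.37%) had H3K18ac at one end and H3K4me1 at the other, with a median of 26.7 FPKM and a shorter median length of 12.5 kb. Loci with 10 or more distal sites with both marks nearest to them (259) had a median of 3.92 FPKM, against 0.966 FPKM for loci with none. Those loci were also longer, with a median of 215 kb against 17.9 kb, and a longer locus gathers more sites.

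**Figure D5:**
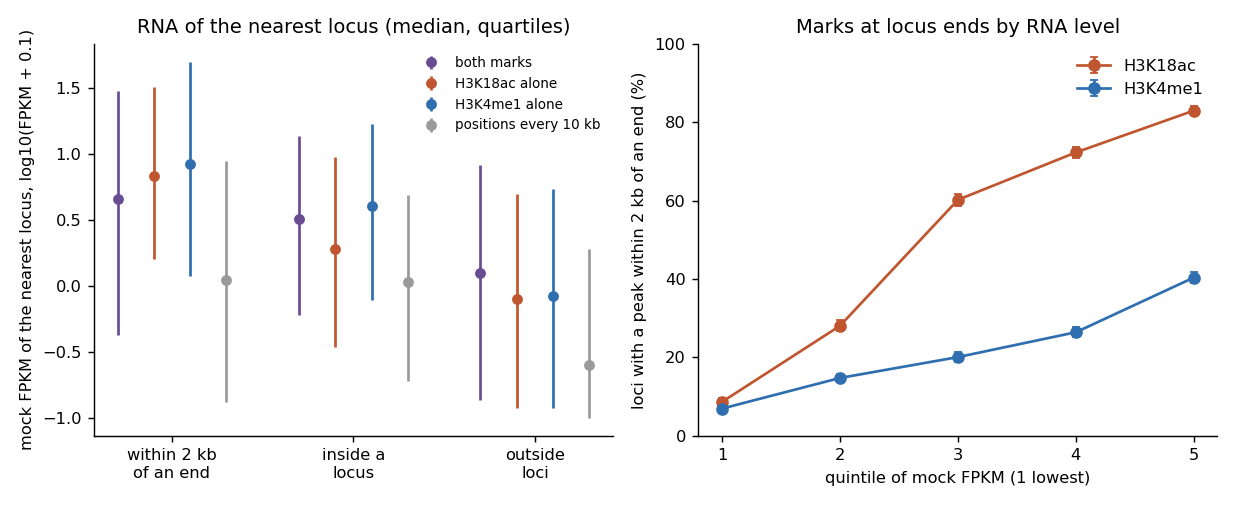
Left, mock RNA of the nearest locus as log10(FPKM + 0.1), median (point) and quartiles (line), for the 3 kinds of site and for positions every 10 kb, by place. Right, share of loci (%) with a peak of H3K18ac or H3K4me1 within 2 kb of an end, by quintile of mock FPKM, with Wilson 95% intervals. H3K18ac runs between 8.66% and 83.0% over the quintiles and H3K4me1 between 6.94% and 40.4%.

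RNA after EP400 siRNA was set beside the marks at locus ends, as the log2 ratio of the level after EP400 siRNA to the mock level with 1 FPKM added to each, a scale that understates differences of low genes. Of 10531 loci with a mean of 1 FPKM or more, 2352 (22.3%) were at least 2-fold lower after EP400 siRNA and 652 (6.19%) at least 2-fold higher. Among loci with both marks, 903 of 2885 (31.3%) were lower and 165 (5.72%) higher. Lower were 1001 of 5004 loci with H3K18ac alone, and the share was 19.8% with H3K4me1 alone and 16.6% with neither. The median log2 ratio was -0.54 with both marks, -0.05 with H3K18ac alone, -0.15 with H3K4me1 alone and -0.07 with neither, against -0.17 over all loci. With FPKM rescaled to equal sums the median over all loci was 0.48 and that of loci with both marks 0.16, and 7.80% of loci with both marks were lower, against 5.23% of all. The balance turned on that scale, with 23.2% of loci with both marks and 28.6% of all loci higher. Loci with both marks thus stood below all loci under both scalings, while the sign of their median depended on the scaling. Their RNA level was also higher, and within quintiles of mean FPKM the share of lower loci was 8.33% with both marks and 3.62% with H3K18ac alone in the lowest, 26.3% with both marks and 16.6% with H3K18ac alone in the middle, and 48.0% with both marks and 44.5% with H3K18ac alone in the highest. Against the other classes the excess was not seen at low levels: in the lowest quintile 13.6% of loci with H3K4me1 alone (66 loci) and 7.82% with neither were lower, and in the second 13.8% with both marks and 14.1% with neither.

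The widest acetylated domains were distal by their centres and held many H3K4me1 peaks, though that at LINC01119 ran across an end of its locus. The 6 widest H3K18ac peaks were also the 6 widest sites with both marks. Inside ZMIZ1, which encodes a transcriptional coregulator, H3K18ac spanned chr10:80903901-80921100, 17200 bp with 16 H3K4me1 peaks that covered 55.8% of it, together with 10 H3.3 peaks, 9 MED26 peaks and 8 Pol II peaks, and ZMIZ1 had 13.6 FPKM in mock cells. A domain of the same width at chr2:37993301-38010500 held 12 H3K4me1 peaks, and its nearest locus, the noncoding RNA gene PIRAT1 51.5 kb away, had 0.0218 FPKM. The domain at chr14:69147301-69164400 (17100 bp) lay 93.1 kb beyond RAD51B, a recombination repair gene at 1.41 FPKM, and H3K4me1 covered 62.0% of it. The others, at FZD4 and PRSS23 (14900 bp), LINC01119 (14700 bp) and RYK (13800 bp), had H3K4me1 on 29.5%, 53.7% and 43.5% of their bases. RYK, 80.1 kb away, was the nearest locus with an RNA estimate, and a locus whose mock estimate failed had its end 24.5 kb away. The RNA of the nearest loci with an estimate of these 6 domains ranged between 0.0218 and 13.6 FPKM, so the widest domains did not lie beside the loci with the most RNA.

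The widest H3K4me1 peaks lay within or across H3K18ac as well. The widest, at chr22:27852001-27857400 (5400 bp), lay 290 kb from MN1, a transcriptional coregulator gene with 4.30 FPKM. Next came 4300 bp inside the RAD51B domain above and 4200 bp at chr7:46013401-46017600, whose nearest locus, the growth factor binding protein gene IGFBP3, was listed at 0. Peaks of 4000 bp lay inside the BAIAP2 and AATK locus (79.7 FPKM) and inside MALL (0.0347 FPKM), and one of 3900 bp inside SHB (16.4 FPKM), an adaptor protein gene. Each of the 6 overlapped at least 1 H3K18ac peak, at least 1 MED26 peak and at least 1 H3.3 peak.

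Some loci gathered many sites, and each locus ranked by a kind of site also had sites of the other kinds nearest to it. RAD51B was nearest to most sites with both marks (37, beside 24 with H3K18ac alone and 22 with H3K4me1 alone), followed by the BABAM2 locus (32), TNS3 (32), ASAP1 (29) and TENM2 (27). TNS3 encodes the focal adhesion protein tensin 3 and had 32.7 FPKM, and 20 of its 32 sites with both marks overlapped H3.3. Sites with H3K18ac alone were most numerous at NRG1 (40), which encodes the growth factor neuregulin 1, at ZXDA (35), at the transcription factor gene RUNX1 (31), at the COL8A1 locus (30) and at LINC00662 (29). Sites with H3K4me1 alone were most numerous inside DST (48), which encodes the cytolinker dystonin, at EXT1 (43), a heparan sulfate synthesis gene, and at the polarity gene PARD3 (37). A locus of many genes on chromosome 1 (30) and PVT1 (28, beside 26 with both marks) came next. At DST, EXT1 and PARD3 the single-mark sites with H3K4me1 outnumbered those with both marks (18, 23 and 16), and 23, 16 and 17 of them spanned 100 bp. Most of these loci are long, between 5.20 and 2321 kb, and the count of sites was not scaled by length.

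Gene lists gave the marks a functional setting, each beside all genes, of which 51.7% had H3K18ac at an end, 22.3% H3K4me1 at an end and 31.3% a distal site with both marks nearest to their locus. Marks at an end are those at the ends of the locus, and 2567 of 20091 loci (12.8%) hold more than 1 symbol. A gene of such a locus, such as RUNX2, HOXC13 or KRT18 below, can start inside it. Marks at the starts of such genes were not read. Housekeeping genes had H3K18ac at an end in 14 of 15 and H3K4me1 in 9, but a distal site with both marks in 3. GAPDH (12383 FPKM), a glycolytic enzyme gene, and RPLP0 (2947 FPKM), a ribosomal protein gene, had both marks at their ends and 0 sites with both marks nearest to them, whereas ACTB, encoding beta-actin (8214 FPKM), had 4. Genes of cell adhesion and matrix had H3K18ac at an end in 17 of 20, H3K4me1 in 8 and a distal site with both marks in 16. Examples are FLNA and the integrin gene ITGA3 (339 FPKM), with both marks at their ends, and the collagen IV gene COL4A2 (228 FPKM), with H3K18ac alone at its ends and 11 sites with both marks nearest to it. Both marks at an end were found for 9 of 15 housekeeping genes and 7 of 20 genes of adhesion and matrix, against 18.9% of all genes. Every gene of these lists had 1 FPKM or more. Over all loci the share with both marks at an end was 37.5% in the highest quintile of mock FPKM.

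AP-1 and TEAD-YAP factors and targets had H3K18ac at an end in 16 of 19 measured genes, H3K4me1 in 10 and a distal site with both marks in 14. The matricellular gene CCN1 (162 FPKM), the receptor kinase gene AXL (150 FPKM) and the transcription factor gene TEAD4 (94.6 FPKM) had both marks at their ends, and the AP-1 gene JUND (119 FPKM) had H3K18ac alone. Markers of the mesenchymal and osteoblast lineage, to which an osteosarcoma line belongs, had H3K18ac at an end in 12 of 20, H3K4me1 in 5 and a distal site with both marks in 12. Vimentin (VIM, 618 FPKM), collagen I (COL1A1, 376 FPKM), osteonectin (SPARC, 229 FPKM) and S100A4 (116 FPKM) each had both marks at their ends and 3 to 5 sites with both marks. They are 4 of 5 members with both marks at an end, and 8 of the 20 had neither, among them RUNX2, the master osteoblast factor (1.51 FPKM, with 23 sites with both marks nearest to it), DLX5 (0.114 FPKM), COL1A2 (0.0114 FPKM) and IBSP (listed at 0), named after their values were seen. HOX genes had H3K18ac at an end in 15 of 20, H3K4me1 in 7 and a distal site with both marks in 5, with HOXB9 (20.1 FPKM) carrying H3K18ac alone and HOXC13 (12.7 FPKM) neither.

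Genes that write, read or erase the marks had H3K18ac at an end more often than H3K4me1, as all genes did (51.7% with H3K18ac and 22.3% with H3K4me1; 75.1% and 31.0% of loci of 1 FPKM or more). Enzymes of H3K18 acetylation and deacetylation had H3K18ac at an end in 8 of 9 and H3K4me1 in 2, and of these KAT2A (74.6 FPKM), HDAC3 (62.8 FPKM) and SIRT7 (47.7 FPKM) had H3K18ac alone. SIRT6 (28.1 FPKM), another deacetylase gene, had both. Enzymes and partners of H3K4 methylation had H3K18ac at an end in 13 of 16 and H3K4me1 in 3. The complex subunit gene WDR5 (41.8 FPKM) and the demethylase genes KDM5C (35.5 FPKM) and KDM1A had H3K18ac alone, and the subunit gene DPY30 (32.8 FPKM) had neither. A distal site with both marks was nearest to 1 of the 9 and to 3 of the 16.

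Markers of other cell types had a median below 1 FPKM in each list and carried the marks to differing extents, the neuronal markers close to all genes. H3K18ac was at an end of 4 of 11 haematopoietic markers and H3K4me1 of 1, with a median of 0.0311 FPKM over the list, and the myeloid marker CD33 (6.94 FPKM) had neither mark. Hepatocyte markers had H3K18ac in 2 of 12 and H3K4me1 in 2, endothelial markers 2 of 10 for each mark, epithelial markers 5 of 12 for H3K18ac and 3 for H3K4me1, and neuronal markers 6 of 12 for H3K18ac and 4 for H3K4me1. The hepatocyte gene SERPINA1 (27.8 FPKM), the endothelial gene ROBO4 (1.47 FPKM), CLDN4 and the neuronal tubulin gene TUBB3 (186 FPKM) had both marks. KRT18 (519 FPKM) and KRT8 (369 FPKM), epithelial keratin genes that share a locus, had neither mark within 2 kb of its ends but 9 sites with both marks nearest to it. Distal sites with both marks were nearest to 6 of 10 endothelial, 7 of 12 neuronal and 6 of 12 epithelial markers. They were nearest to 3 of 11 haematopoietic and 3 of 12 hepatocyte markers, against 31.3% of all genes. Such sites were thus not confined to the line's own lineage, though a longer locus gathers more of them. The authors' confidence limits of single FPKM values are wide, for example 0 to 1387 for VIM and 0 to 1648 for FLNA, so the order of single genes is loose.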

How the data were processed

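The peak lists that the authors deposited hold coordinates alone (hg19, counted from 1), without score or height. The RNA values are FPKM per transcript row that the authors deposited with confidence limits, per the file headers. Bowtie 0.12.9, TopHat2 2.0.8, Cuffdiff 2.0.2 and hg19 were used, per the submitters' processing notes. Peak caller, threshold, control library and annotation release: not given in the sources used here. Depth is unknown, and the 4 inputs were not analysed here.

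The lists name chromosomes 23 and 24, taken as X and Y: 25.4% of the 1415 H3K18ac peaks on 23 lay within 2 kb of a locus end placed on X, against 0.283% placed on Y. Overlap means 1 bp or more. FPKM of rows of 200 nt or more (2116 of 48669 rows were shorter) were summed per locus, and failed estimates were left out, which leaves 20091 of 20821 loci. Gene symbols came by RefSeq identifier (97.7% of rows). Distances of peaks and sites run from their centres. Marks at the ends of a locus were instead counted by any peak with 1 bp or more within 2 kb of an end. A site inside a locus was given that locus, the shortest if several, and otherwise the locus with the nearest end. Shares carry Wilson and medians order-statistic 95% intervals. Python 3.11.15, numpy 2.4.6, pandas 2.3.3 and scipy 1.17.1 were used, and the overlap and distance steps were tested on simulated regions with known answers. Promoters came from RefSeq (35116 promoters, GRCh38.p14), used for sequence and strand only. Reading the starts by strand was added after seeing the data.

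Named loci are those nearest to the 6 widest peaks of each mark and the 6 widest sites with both marks, the 5 with most sites of each kind, and members of each gene list among the 4 with the highest mock FPKM; NEUROD1, RUNX2, DLX5, COL1A2 and IBSP are outside this rule and were chosen after their values were seen. Of the listed genes, AMOTL2, SETD1B and ITGAM had no value. The members and lists were chosen with earlier results of these data known.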

Additional observations from a re-analysis of the deposited data

How the results depend on the processing

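Of 73 alternatives, 13 stayed within the interval of the value reported, and none turned a comparison of the marks around in overlap, width or distance. The lists hold no score, so a stricter threshold could be imitated by width alone. No paired analysis was possible because each mark has 1 library, and the replicate numbers that EP400 immunoprecipitations and inputs share belong to 1 pooled list and to inputs not analysed here.

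Overlap of H3K18ac with H3K4me1, and of H3K4me1 with H3K18ac, was 33.6% and 51.3% when at least 50% of the shorter peak had to be shared, 54.9% and 72.5% within 1 kb, and 40.1% and 56.2% with the wider peaks of each list. It was 28.6% and 60.1% when the shares of the 5 width classes were weighted by the widths of both lists pooled. On the autosomes it was 34.9% for H3K18ac. Joined across 500 bp, H3K18ac peaks had a median width of 500 bp. With locus ends of 1 kb, 20.8% of H3K18ac and 5.15% of H3K4me1 peaks lay at an end, and 4.91%, 29.2% and 6.37% of sites with both marks, H3K18ac alone and H3K4me1 alone. With 5 kb these shares were 31.3%, 20.8%, 15.8%, 39.4% and 26.8%. With expressed loci only (1 FPKM or more) they were 19.7%, 7.94%, 5.40%, 27.2% and 11.4%, and the median distances were 42257.5 bp for H3K18ac and 48774.5 bp for H3K4me1. With wider peaks 9.75% of H3K4me1 peaks, 35.5% of sites with H3K18ac alone and 13.0% with H3K4me1 alone lay at an end.

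The median FPKM of the nearest locus for both marks, H3K18ac alone and H3K4me1 alone was 1.60, 2.80 and 2.41 with each locus counted once, so the order of the kinds of site changed, as it did with loci of 1 FPKM or more. It was 2.62, 2.88 and 3.43 within 50 kb, 1.70, 1.80 and 2.14 with the highest row of a locus, 2.32, 2.74 and 2.85 with wider peaks, and 8.25, 8.23 and 9.09 with loci of 1 FPKM or more. Loci with H3K18ac and with H3K4me1 at an end were 47.5% and 12.4% with 1 kb, 56.5% and 32.4% with 5 kb, and 75.1% and 31.0% of loci with 1 FPKM or more. The share of loci with both marks and lower RNA after EP400 siRNA was 23.5% on median centring, 7.80% with equal sums and 26.7% as a mean over quintiles, all chosen after seeing the data. The cause of these shifts was not tested.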

Other observations

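The balance of the marks differed between chromosomes. H3K18ac peaks outnumbered H3K4me1 peaks most on chromosome X (1415 H3K18ac and 759 H3K4me1 peaks, a ratio of 1.86), followed by 19 (1.64) and 16 (1.46), and were fewer on 14 (0.876) and 22 (0.886). The share of H3K18ac peaks that overlapped H3K4me1 was, leaving out Y with its 5 H3K18ac peaks, lowest on X (17.5%) and 19 (22.1%) and highest on 22 (42.9%). The chromosomes with high ratios included the gene-rich 19 (24.8 loci per Mb) and X, with 5.65 loci per Mb.

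Many sites with H3K18ac alone lay away from genes near ZXDA and LINC00662, which were named by the rule for most sites of a kind. At ZXDA, 34 of the 35 sites lay outside the locus, within chrX:57936101-58274800, with 1 site with both marks and 1 with H3K4me1 alone beside them, and 1 of the 35 overlapped Pol II, 0 MED26 and 0 H3.3. At LINC00662, 27 of the 29 sites lay outside the locus, within chr19:28143401-28530400, with 5 sites with both marks and 8 with H3K4me1 alone beside them, and 3 of the 29 overlapped H3.3. Whether reads from repeated sequence contribute to such clusters was not tested.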
